A study of Mus musculus with 12 samples.

Results

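Ribosomal protein genes encode the protein parts of the ribosome, and 78 of them on mouse chromosomes 1 to 8 were followed here through histone acetylation. They were chosen by symbol from 10765 protein-coding genes on these chromosomes: 41 genes of the cytosolic ribosome (Rpl, Rps and Rplp symbols) and 37 of the mitochondrial ribosome (Mrpl and Mrps symbols), with the S6 kinases left out. The cytosolic genes include 3 retroposed copies by name or record, Rpl37rt, Rpl34-ps1 and Rps23rg1, which leaves 38 others. The rule used no measured value, though earlier results of these data were known when it was set.

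The cells were fibro-adipogenic progenitors (FAPs), the mesenchymal cells between muscle fibres, sorted by flow cytometry from muscle of C57Bl6 mdx mice. All groups carry the mdx mutation of dystrophin, so none is a healthy control. Mice of 1.5 months (young) or 12 months (old) were given injections into the peritoneum each day for 15 days, either of saline vehicle or of 0.6 mg/kg/day trichostatin A, called TSA here, which inhibits the enzymes that remove acetyl groups from histones. Chromatin was precipitated for H3K27ac or for H3K9/14ac, which gave 8 libraries, 1 for each mark, age and treatment, beside 4 input samples not analysed here. The sources used here give neither the number of mice behind a library nor the sorting gate.

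A cell's cytosolic ribosome translates nuclear messages, while the mitochondrial ribosome translates the few messages of the organelle's own genome, most of which encode respiratory chain subunits. The proteins of both are encoded in the nucleus, those of the mitochondrial ribosome being imported after synthesis. Cytosolic ribosomal protein genes are among the most transcribed genes of a cell, and many of their messages begin with a C followed by further pyrimidines (a terminal oligopyrimidine tract), through which mTOR signalling controls their translation. H3K27ac and H3K9/14ac are acetyl marks of active promoters, and H3K27ac also marks active enhancers.

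The promoters of both classes carry letters that help to tell them apart. RefSeq's promoter table (GRCm38.p6, the build of the peak lists) held 64 of the 78 genes, 31 cytosolic and 33 mitochondrial. A start base C in a run of at least 5 pyrimidines stood at 7 of 31 cytosolic starts (22.6%), at 0 of 33 mitochondrial starts, and at 2.21% of all 8884 promoters. The count depends on the exact base of 1 annotated start per gene. It leaves out Rpl27a (a run of 16), Rpl7a (7) and the copy Rps23rg1 (8), whose annotated start base is not C. The 7 are shown because they carry this tract. They lie at chr4:86857348-86857467 (minus strand) for Rps6, chr3:90213629-90213748 (minus) for Rps27, chr2:39005112-39005231 (minus) for Rpl35, chr2:180257279-180257398 (plus) for Rps21, chr7:118116128-118116247 (minus) for Rps15a, chr7:4792865-4792984 (plus) for Rpl28 and chr7:141447551-141447670 (plus) for Rplp2. Each sequence runs 5′ to 3′ from 100 bases before the annotated start to its base 20. Capitals mark the pyrimidine tract at the start and any match on either strand to CCGGAAG (the core bound by ETS factors), AAGATGGC (YY1) or GCATGCGC (the core of an NRF1 site).
Rps6: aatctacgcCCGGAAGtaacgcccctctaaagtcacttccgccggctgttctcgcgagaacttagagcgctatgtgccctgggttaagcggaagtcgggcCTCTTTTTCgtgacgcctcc
Rps27: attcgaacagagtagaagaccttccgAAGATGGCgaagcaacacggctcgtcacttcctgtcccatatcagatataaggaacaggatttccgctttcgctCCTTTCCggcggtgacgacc
Rpl35: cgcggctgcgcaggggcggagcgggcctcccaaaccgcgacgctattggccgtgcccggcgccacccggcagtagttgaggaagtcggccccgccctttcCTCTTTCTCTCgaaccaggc
Rps21: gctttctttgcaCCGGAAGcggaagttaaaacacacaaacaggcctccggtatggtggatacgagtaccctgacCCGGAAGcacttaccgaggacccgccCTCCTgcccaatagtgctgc
Rps15a: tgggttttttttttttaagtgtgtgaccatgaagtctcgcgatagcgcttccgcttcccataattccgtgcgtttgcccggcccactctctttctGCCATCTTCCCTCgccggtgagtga
Rpl28: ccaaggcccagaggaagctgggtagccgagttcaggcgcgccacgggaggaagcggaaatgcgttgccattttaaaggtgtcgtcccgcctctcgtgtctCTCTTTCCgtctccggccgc
Rplp2: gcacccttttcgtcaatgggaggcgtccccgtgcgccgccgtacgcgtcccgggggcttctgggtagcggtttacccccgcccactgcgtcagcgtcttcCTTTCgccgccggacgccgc
In Rps15a the YY1 letters (on the other strand) overlap the tract, so the 2 form one block of capitals.

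The other letters were about as frequent in the promoters of both classes. Over the full 300 bases (250 before to 50 after the start), CCGGAAG was in 10 of 33 mitochondrial (30.3%), 9 of 31 cytosolic (29.0%) and 11.8% of all promoters. AAGATGGC was in 12.1%, 12.9% and 3.02%, and GCATGCGC in 9.09%, 6.45% and 3.43% in the same order. The GC box letters GGGCGG (51.5%, 61.3% and 46.5%), the TATA box letters TATAAA (6.06%, 9.68% and 13.8%) and CCAAT (39.4%, 32.3% and 38.6%) differed less. The median ratio of observed to expected CpG was 0.93 in cytosolic, 0.73 in mitochondrial and 0.57 in all promoters. A match is a description of the letters, and the factors' binding was not measured. Of the mitochondrial promoters with motif letters in the printed stretch, 4 are shown as examples. Others, such as those of Mrpl17 and Mrps12 with letters close to the start, are not shown. The 4 are Mrpl33 (chr5:31613851-31613970, plus), Mrpl9 (chr3:94443236-94443355, plus), Mrps26 (chr2:130563657-130563776, plus) and Mrpl53 (chr6:83109008-83109127, plus).
Mrpl33: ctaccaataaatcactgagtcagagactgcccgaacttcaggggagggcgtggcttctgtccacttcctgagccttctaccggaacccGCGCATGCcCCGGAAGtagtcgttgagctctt
Mrpl9: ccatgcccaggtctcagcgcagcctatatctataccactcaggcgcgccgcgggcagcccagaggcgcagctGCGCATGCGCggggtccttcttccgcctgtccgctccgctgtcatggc
Mrps26: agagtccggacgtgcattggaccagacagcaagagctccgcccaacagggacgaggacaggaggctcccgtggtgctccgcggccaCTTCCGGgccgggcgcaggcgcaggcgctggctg
Mrpl53: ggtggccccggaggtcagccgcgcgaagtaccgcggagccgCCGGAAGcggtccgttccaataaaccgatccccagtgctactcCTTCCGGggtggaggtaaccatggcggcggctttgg

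Each deposited peak list gives every peak's position and its tags, the sequenced fragments counted in it. The lists are cut off along the genome and hold 12.6 to 50.8% of the peaks that their headers state, 77135 peaks in all. The H3K27ac lists reached 24 (young vehicle), 78 (young TSA), 34 (old vehicle) and 78 (old TSA) of the genes, and the H3K9/14ac lists reached 15, 33, 32 and 71 in the same order. A gene was counted only in lists that reach it. Its value is the tags of peaks within its body and 2000 bp on either side, and for 43 of the 78 this window also holds another protein-coding gene. With 1 library per group there is no replicate check and no p-value, and errors given with log2 differences are standard errors from counting alone.

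The markers of FAPs bore peaks in all 8 libraries (8 of 8 or 9 of 9 markers reached), with summed tags of 0.241 to 1.29% of all tags read. Pax7 and Chrna1, markers of muscle stem cells and fibres, had none where reached, while Myod1 had 496 H3K9/14ac tags in old TSA. Of the muscle fibre list, 1 to 3 of 5 to 9 genes reached had a peak in each library: Casq1 had 67 to 346 H3K27ac tags, while Ttn and Neb had no peak in any library. Ptprc, a leukocyte marker, had none either, and the leukocyte list had 0 to 3 genes with a peak in a library, with summed tags of 0 to 0.0335%. Every endothelial marker reached also had a peak (3 to 8 genes), with summed tags of 0.142 to 0.511%. In young TSA the endothelial sum was above the FAP sum for both marks, from fewer genes. It was 0.361 against 0.350% for H3K27ac and 0.334 against 0.242% for H3K9/14ac. The FAP sum was the larger in all other libraries. The part of endothelial cells in the values below was not tested. For H3K9/14ac the labels and the likeness of libraries differ: over the 15 genes with a peak in all 4 libraries, young vehicle and old TSA had the highest Spearman correlation of tags (0.97) and young TSA and old vehicle the lowest (0.70). Over 1556 genes these pairs had the 2 highest values (both 0.89), and old vehicle with young vehicle the lowest (0.84). These are descriptions over genes that share libraries and depth. Were the H3K9/14ac labels exchanged at 1 age, the directions given for TSA at that age would turn. The H3K9/14ac comparisons between the ages, and the balance of the marks at that age, would then pair unlike treatments.

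Nearly all of these genes were acetylated in every library, a larger share than of genes at large and like that of related lists. H3K27ac peaks lay at 24 of 24 genes in young vehicle, 74 of 78 in young TSA (94.9%, exact 95% interval 87.4 to 98.6, counting error only), 31 of 34 in old vehicle (91.2%) and 73 of 78 in old TSA (93.6%). Of all protein-coding genes reached, 55.8, 53.2, 51.0 and 55.3% had one. H3K9/14ac peaks lay at 15 of 15, 33 of 33, 32 of 32 and 69 of 71 genes (97.2%), against 57.0, 63.0, 60.7 and 57.4% of all genes. Over the 8 libraries and both marks the share was 100% for the proteasome, 93.3 to 100% for ribosome biogenesis, 86.7 to 100% for mitochondrial translation, 85.7 to 100% for the respiratory chain and 77.8 to 100% for translation factors.

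The retroposed copies had no peak in any library. Rpl37rt and Rpl34-ps1 had no peak in any of the 3 lists that reach them, and Rps23rg1 none in its 2 H3K27ac lists. All other cytosolic genes, 38 in each TSA library, had H3K27ac. Without these copies the share was 98.7% (young TSA) and 97.3% (old TSA) for H3K27ac and 100% for H3K9/14ac in old TSA. The promoter of Rpl37rt (chr5:115110249-115110368, minus strand) is shown as that of a copy, with a CpG ratio of 0.41 and none of the capitals. Neither trait sets it apart from genes with peaks. Rpl6 and Rpl22 had peaks at ratios of 0.42 and 0.43, and Rpl22, Rpl12 and Rpl34 had peaks without any of the capitals.
Rpl37rt: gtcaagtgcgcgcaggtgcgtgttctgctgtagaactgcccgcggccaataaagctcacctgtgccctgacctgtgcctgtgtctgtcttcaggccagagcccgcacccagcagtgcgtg

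The other genes without an H3K27ac peak were all mitochondrial, and all 4 bore H3K9/14ac. Mrps18c, one of several related S18 proteins of the small subunit, had 0 H3K27ac tags in young TSA and in old TSA but 248 H3K9/14ac tags in old TSA, in 1 peak from -857 to 489 bp relative to its start. Mrps2, also of the small subunit, had 49 H3K27ac tags in young vehicle, 85 in young TSA and 0 in both old libraries. Its H3K9/14ac tags were 154 (young vehicle), 295 (young TSA), 348 (old vehicle) and 152 (old TSA). Mrps2 was thus listed for H3K27ac in young libraries alone and for H3K9/14ac in all 4.
Mrpl37 had 175 H3K27ac tags (young TSA), 0 (old vehicle) and 141 (old TSA), and Mrps15 had 114, 0 and 101 in the same order. The H3K9/14ac tags of Mrpl37 were 386, 413 and 244, and those of Mrps15 were 244, 323 and 156. The absences of Mrpl37 and Mrps15 were in old vehicle, the H3K27ac list with the fewest tags per gene (a median of 244 over the ribosomal protein genes with a peak, against 384 to 475 in the others). A list shows only called peaks, so a gene at 0 may hold tags that were not called, and no fold is given against it. The promoters of Mrps18c (chr5:100798659-100798778, plus) and Mrps2 (chr2:28467966-28468085, plus) are shown as those lacking an H3K27ac peak in both old TSA and another library.
Mrps18c: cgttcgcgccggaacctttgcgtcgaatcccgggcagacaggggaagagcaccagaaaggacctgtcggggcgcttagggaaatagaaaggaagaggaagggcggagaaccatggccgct
Mrps2: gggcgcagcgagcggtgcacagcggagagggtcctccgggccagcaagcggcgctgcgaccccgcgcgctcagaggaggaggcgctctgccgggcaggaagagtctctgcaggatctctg
The start in the table lies 2115 bases inside the outer end of Mrps2, and its H3K27ac peak in young vehicle spans that start, from -10 to 303 bp relative to it.

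Cytosolic ribosomal protein genes carried more of both marks than mitochondrial ones in all 8 libraries. Median H3K27ac tags were 673 and 276.5 (cytosolic and mitochondrial) in young vehicle, 576 and 323 in young TSA, 325 and 177 in old vehicle, and 531 and 273 in old TSA. Median H3K9/14ac tags were 523.5 and 222, 472 and 299, 481 and 323, and 370.0 and 234 in the same order. The ratio of medians was 1.49 to 2.43. In young vehicle no mitochondrial gene reached the cytosolic median for either mark, and 10 of 14 (H3K27ac) and 9 of 9 (H3K9/14ac) lay below the lowest cytosolic gene. H3K9/14ac young vehicle was the only library in which the classes (6 and 9 genes) did not overlap.

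**Figure D1:**
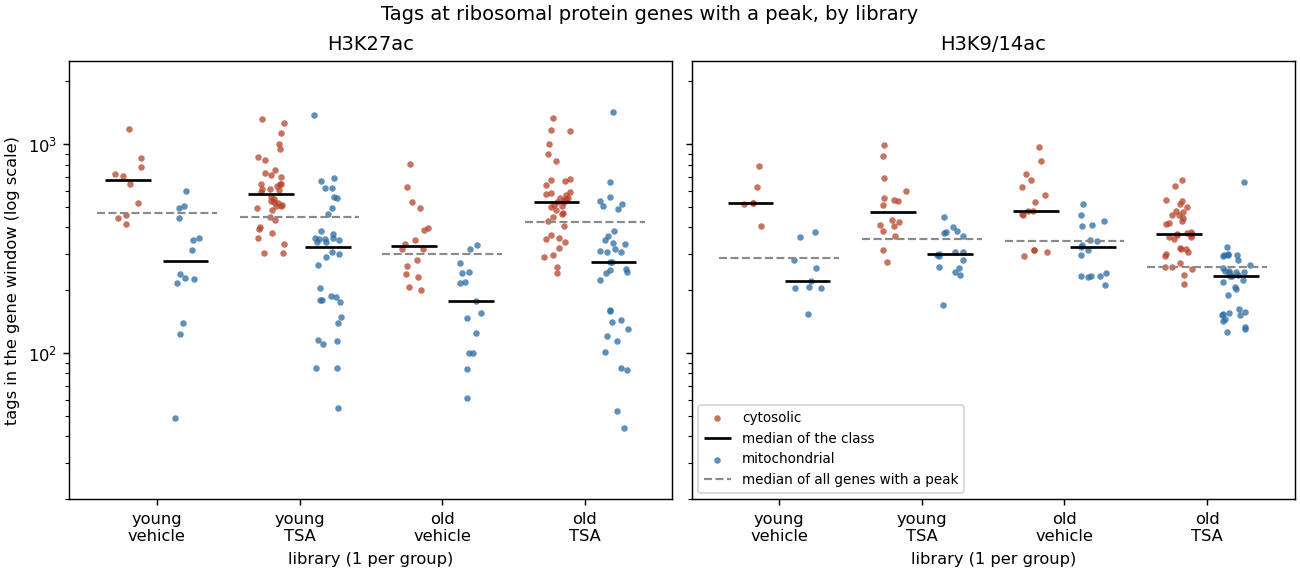
Tags in the gene window (log scale) of each ribosomal protein gene with a peak, in the 4 H3K27ac and the 4 H3K9/14ac libraries; each point is a gene, solid bars are class medians and dashed lines the median of all genes with a peak. Cytosolic medians lie above the mitochondrial ones in all 8 libraries, for example 531 against 273 tags for H3K27ac in old TSA.

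The difference lay in the length of chromatin marked more than in its density. In old TSA the H3K27ac peaks covered a median of 1820 bp of a cytosolic window and 1020 bp of a mitochondrial one, while the tags per kb of peak were 273 and 251 (222 over all genes). For H3K9/14ac in old TSA the medians were 1806 and 1209 bp, and 202 and 189 tags per kb of peak (165 over all genes). In H3K9/14ac old vehicle the density was higher in mitochondrial genes, 323 against 307 tags per kb of peak.

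Most of the extra length lay downstream of the start, with a smaller part upstream. Within 2500 bp of the start, H3K27ac of old TSA covered a mean of 1228 bp downstream and 612 bp upstream in cytosolic genes, 627 and 479 bp in mitochondrial genes, and 978 and 643 bp in all genes with a peak within 1000 bp of the start. At 1000 bp downstream 82.8% of cytosolic, 9.68% of mitochondrial and 38.2% of all starts were covered. The same order held in each of the 8 libraries at that distance, with 58.3 to 88.9% of cytosolic, 0 to 16.7% of mitochondrial and 32.1 to 49.6% of all starts covered. Peaks thus extended into the bodies of cytosolic genes and stopped early in mitochondrial genes.

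**Figure D2:**
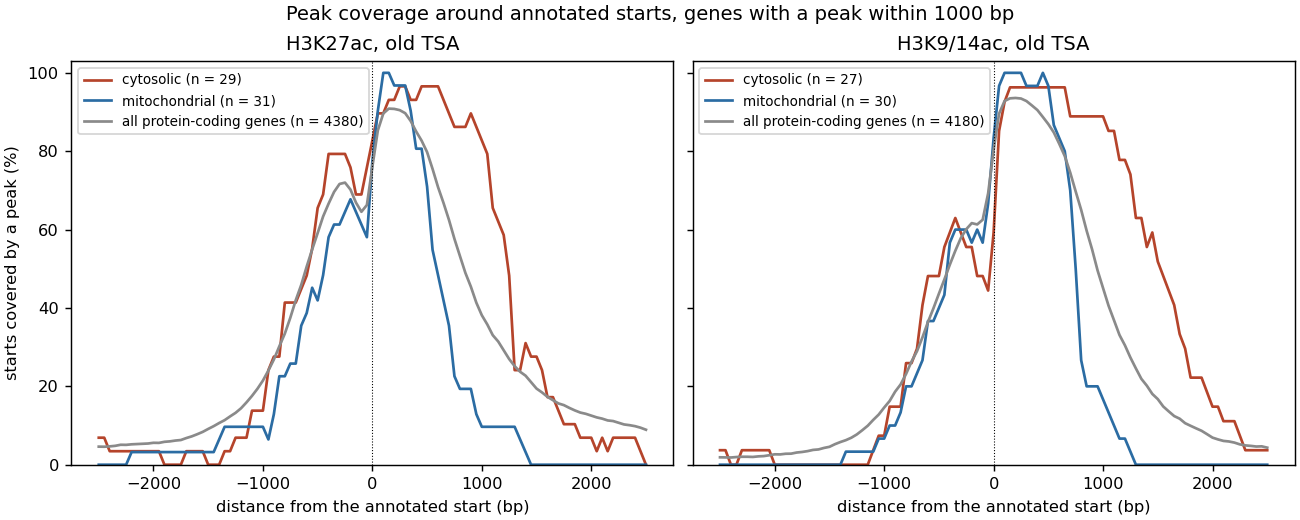
Percent of annotated starts covered by a peak at each distance from the start (bp, negative upstream), for cytosolic, mitochondrial and all protein-coding genes in the old TSA libraries of H3K27ac and H3K9/14ac. At 1000 bp downstream 82.8% of cytosolic and 9.68% of mitochondrial starts are covered by H3K27ac.

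Directly before the start the coverage dipped in several libraries, where separate peaks flanked it. H3K9/14ac of old TSA covered 44.4% of cytosolic, 66.7% of mitochondrial and 69.3% of all starts at 50 bp upstream, and a peak spanned 16 of 27 cytosolic starts. In young TSA a peak spanned 12 of 13 cytosolic starts and in old vehicle 10 of 12. At Rpl31, a large-subunit protein, H3K9/14ac formed 1 peak from -678 to 1535 bp relative to the start in young TSA, but 2 peaks in old TSA, the first ending at -153 bp and the second beginning at 31 bp. Density of H3K9/14ac tags in peaks of cytosolic genes was 202 tags per kb for old TSA, against 303 (young TSA) and 307 (old vehicle). It had the same order over all genes (165, 225 and 257) and over mitochondrial genes (189, 257 and 323), so it was not particular to cytosolic genes. Young vehicle had a cytosolic density of 227, with 4 of 5 cytosolic starts spanned. The old TSA list also reaches genes that the other H3K9/14ac lists do not. Whether density had a part in the dip was not tested. At Rpl22 the H3K27ac peak in young TSA ran from 868 to 2302 bp downstream of the start in the table. No peak of any library spanned that start, and none spanned those of Rps16 and Mrpl23 in the lists that reach them.

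The most heavily marked genes were mostly cytosolic. Per kb of window, the highest H3K27ac values in old TSA included those of Rpl13a (186 tags per kb), Rpl7 (164), Rpl27a (162) and Mrpl34 (137). Rpl7, an RNA-binding protein of the large subunit, had 1186 H3K27ac tags (young vehicle), 1263 (young TSA), 808 (old vehicle) and 1169 (old TSA), and was the highest of the genes reached in both vehicle libraries. Its H3K9/14ac tags were 786, 995, 975 and 676, and no other member had more in any of the 4 libraries. Rpl13a had 1328 H3K27ac tags in young TSA and 1336 in old TSA, and Rpl27a had 1126 and 1161. Rps6, the small-subunit protein phosphorylated by S6 kinase, had 865, 625 and 831 (young TSA, old vehicle, old TSA).

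For H3K9/14ac in old TSA the highest values per kb included those of Rpl7 (94.7 tags per kb), Rpl13a (87.5), Rpl9 (76.8) and Rpl7a (75.6). The stalk proteins, which recruit elongation factors, were near the middle of the cytosolic class: Rplp0 had 529 H3K27ac tags in young TSA and 531 in old TSA, and Rplp2 had 614 and 531. Rpl5 and Rpl11, which bind the 5S RNA and Mdm2, had 369 and 353 H3K27ac tags in old TSA, below the class median. Rpl22l1, a paralog of Rpl22 that replaces it in some cells, had 416, 401, 208 and 318 H3K27ac tags (young vehicle, young TSA, old vehicle and old TSA), while Rpl22 had 357 in young TSA and 242 in old TSA. The order was the opposite for H3K9/14ac: Rpl22l1 had 311 and 215 tags in young and old TSA, and Rpl22 had 434 and 316.

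Among genes with a peak, the lowest values per kb in old TSA belonged to mitochondrial genes. They were Mrps9 (1.42 H3K27ac tags per kb), Mrps35 (2.64), Mrpl35 (2.98), Mrps28 (3.05) and Mrpl19 (4.37), and for H3K9/14ac Mrps28 (1.21), Mrps9 (2.45), Mrpl1 (3.67), Mrps35 (6.27) and Mrpl35 (8.59). Values per kb of window fall with gene length. The long genes Mrps28 and Mrpl1 had 384 and 365 H3K27ac tags in old TSA, above the mitochondrial median of 273. Mrps9, Mrps35, Mrpl35 and Mrpl19 had 83, 85, 44 and 53 there, below that median. Mrps9 had 123, 139, 84 and 83 H3K27ac tags in young vehicle, young TSA, old vehicle and old TSA. Equal windows of 1000 bp on either side of the start, which remove gene length, gave the same order of the classes, with smaller differences. Cytosolic and mitochondrial medians there were 394 and 234 tags for H3K27ac in young vehicle, and 250 and 222 for H3K9/14ac in old TSA. By H3K27ac tags in these windows, the cytosolic median stood at percentiles 60.9, 68.7, 57.0 and 66.2 of all genes with tags there. The mitochondrial median stood at 32.3, 46.5, 27.9 and 40.8. By H3K9/14ac the percentiles were 86.8, 71.5, 80.3 and 64.4 for cytosolic, and 42.5, 48.7, 58.0 and 53.7 for mitochondrial genes. Mrpl48, with 1375 and 1419 H3K27ac tags in young and old TSA, had the most of the mitochondrial genes in both libraries, and its window includes Rab6a. Mrpl46 and Mrps11 start next to each other in opposite directions and share 1 peak, so their values are the same (354 H3K27ac tags in young TSA, 273 in old TSA).

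The balance of the marks leaned to H3K9/14ac, most of all in mitochondrial genes. The log2 ratio of H3K27ac to H3K9/14ac tags, with the median of all genes set to 0, had a median of -0.42 in young vehicle (14 of 15 genes below 0), -0.28 in young TSA (22 of 33), -0.28 in old vehicle (22 of 29) and -0.37 in old TSA (47 of 67). In old TSA the median was -0.61 in mitochondrial and -0.14 in cytosolic genes. Mrpl19 had 53 H3K27ac and 162 H3K9/14ac tags there, a balance of -2.28 ± 0.23. Mrpl35 had 44 and 127 tags (-2.20 ± 0.25), Mrps25 had 114 and 297 (-2.05 ± 0.16) and Mrps35 had 85 and 202 (-1.92 ± 0.19). Mutations of MRPS25 in people cause a mitochondrial disease.
Toward the other end, Mrps12, a protein of the decoding centre, had 534 H3K27ac and 207 H3K9/14ac tags (0.70 ± 0.12). Among cytosolic genes Rpl22 (-1.06 ± 0.12) and Rpl6 (-0.97 ± 0.12) were lowest. Other lists of related genes also had medians below 0 in old TSA: -0.54 for the respiratory chain (33 genes), -0.46 for the proteasome (15) and -0.27 for ribosome biogenesis (45). That of the other mitochondrial translation genes, such as tRNA synthetases and factors, was 0.11 (23).

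**Figure D3:**
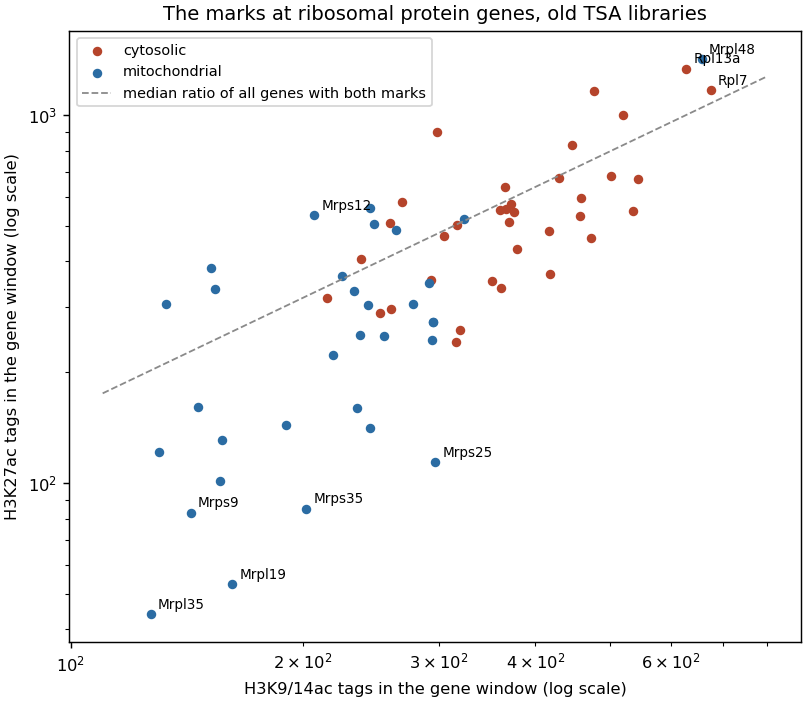
H3K27ac tags against H3K9/14ac tags (both log scale) of the 67 ribosomal protein genes with both marks in the old TSA libraries, cytosolic in red and mitochondrial in blue; the dashed line is the median ratio of all genes with both marks. Mrpl19 and Mrpl35 lie farthest below the line (balance -2.28 and -2.20), and Mrps12 lies above it (0.70).

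Differences between the libraries were taken relative to all genes: the log2 ratio of a gene's tags minus the median log2 ratio over all genes with a peak in both lists. That median was -0.11, 0.57, -0.75 and -0.04 for H3K27ac (TSA against vehicle in young, the same in old, old against young in vehicle, the same in TSA) and 0.41, -0.49, 0.34 and -0.52 for H3K9/14ac. A gene past 1.5-fold either way is counted as higher or lower. The 4 comparisons of a mark share libraries with one another, so they are not independent.

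With TSA in young FAPs, the H3K27ac of ribosomal protein genes stayed close to the general level. The median relative value was 0.01 over 24 genes, and 1 was higher and 0 were lower, where 2.36% of 2031 genes were higher and 6.4% lower. The higher gene was Mrps2 (0.90 ± 0.26), from 49 to 85 tags. Mrps26 (0.39 ± 0.13) and Mrps9 (0.29 ± 0.18) came next, short of 1.5-fold. At the low end, Rps3a1, a small-subunit protein, had 642, 432, 347 and 553 tags (young vehicle, young TSA, old vehicle, old TSA), and its relative value was -0.46 ± 0.09. Rpl35 followed (-0.36 ± 0.10), from 459 to 332 tags, and Mrpl24 (-0.28 ± 0.10). Among cytosolic genes Rpl7 (0.20 ± 0.06) and Rps21 (0.14 ± 0.09) were highest and Rpl31 (-0.19 ± 0.08) was next lowest after Rpl35.
The length under peaks was smaller with TSA at 20 of 24 genes and at all 10 cytosolic ones, as at 1686 of 2031 genes at large.

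In old FAPs with TSA, H3K27ac gave a median relative value of -0.10 over 31 genes, with 1 higher and 1 lower, where 11.3% of 2788 genes were higher and 1.04% lower. Mrpl47, of the mitochondrial large subunit, was the higher one (1.30 ± 0.21). Its tags were 313 (young vehicle), 297 (young TSA), 61 (old vehicle) and 223 (old TSA), so old vehicle alone was low. In young vehicle 1 peak ran from -956 to 663 bp relative to its start. In old vehicle only a peak from -698 to -272 bp was listed, and in old TSA peaks lay on both sides (116 tags over the start, 107 before it). Actl6a and Ndufb5 share this window, and with no flank Mrpl47 leaves the comparison, since the old vehicle peak lies outside its body. Its H3K9/14ac tags were 461 in old vehicle and 219 in old TSA, so old vehicle was the higher of the old libraries for that mark.
The lower gene, Mrps9, had about the same tags in both libraries (84 and 83), against the general increase, and its relative value was -0.59 ± 0.22. Mrps28 (-0.35 ± 0.11) and Rpl22 (-0.29 ± 0.14) were next lowest, with Rps20 (-0.29 ± 0.13) and Rpl34 (-0.29 ± 0.10). Highest after Mrpl47 were Mrpl9 (0.16 ± 0.15), Mrps26 (0.12 ± 0.15) and, among cytosolic genes, Rps3a1 (0.10 ± 0.10) and Rpl37a (0.05 ± 0.12). All cytosolic genes, 16 of 16, lay within 1.5-fold.

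Between old and young vehicle, H3K27ac had a median relative value of 0.02 over 23 genes, with 0 higher and 1 lower, where 6.91% of 1925 genes were higher and 11% lower. The lower gene was again Mrpl47 (-1.61 ± 0.20), through the same old vehicle library. Mrpl44 (-0.43 ± 0.17) and Mrpl30 (-0.40 ± 0.11) came next, and Rps27 was lowest of the cytosolic genes (-0.36 ± 0.10). Mrps5 (0.27 ± 0.19), Mrps26 (0.27 ± 0.15) and Mrps9 (0.20 ± 0.20) were highest, and Rpl7 (0.19 ± 0.07) was the highest cytosolic gene. Every one of the 23 genes had a shorter length under peaks in old vehicle, as did 1793 of 1925 genes at large.

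Between old and young TSA, the one H3K27ac comparison that reaches all 78 genes, most values were slightly below the general level. Of 73 genes 58 lay below 0, the median was -0.14, and 0 were higher and 3 lower, where 11.6% of 5757 genes were higher and 3.87% lower. The 3 were mitochondrial: Mrps9 (-0.71 ± 0.20), from 139 to 83 tags, Mrpl19 (-0.64 ± 0.25), from 85 to 53, and Mrpl30 (-0.63 ± 0.10). The median was -0.23 in mitochondrial (35 genes) and -0.12 in cytosolic genes (38).
The lowest cytosolic genes were Rpl22 (-0.52 ± 0.12), Rpl5 (-0.41 ± 0.10) and Rps3 (-0.38 ± 0.11). Mrpl9 (0.43 ± 0.14), from 187 to 245 tags, and Rps3a1 (0.39 ± 0.09), from 432 to 553, were highest. The proteasome (median -0.26, 15 of 18 below 0), respiratory chain (-0.21, 30 of 36), translation factor (-0.17, 19 of 23) and ribosome biogenesis lists (-0.11, 36 of 49) lay below 0 as well.

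H3K9/14ac differed more between genes. In young FAPs, as labelled, the median relative value with TSA was -0.10 over 15 genes, with 0 higher and 3 lower, where 10.1% of 1588 genes were higher and 6.74% lower. The lower ones were Mrpl41 (-0.85 ± 0.11), from 379 to 279 tags, Rpl35 (-0.83 ± 0.10), from 516 to 386, and Mrpl30 (-0.65 ± 0.11), from 359 to 304. Mrps2 was highest (0.52 ± 0.14), and Rpl37a (-0.57 ± 0.10) and Rpl31 (-0.39 ± 0.09) were low among cytosolic genes. Ribosome biogenesis genes, whose products assemble the subunits, had 0 higher and 5 lower of 18 (median -0.25). The medians of the other lists were below 0 as well. They were -0.27 for the proteasome (1 lower of 5), -0.23 for the respiratory chain (2 of 12), -0.12 for mitochondrial translation (1 of 6) and -0.10 for translation factors (0 of 7).

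In old FAPs, as labelled, the median with TSA was -0.05 over 32 genes, with 0 higher and 2 lower, where 9.09% of 2980 genes were higher and 8.36% lower. The lower ones were Mrps2 (-0.71 ± 0.14) and Mrpl47 (-0.59 ± 0.12), and Mrps15 (-0.56 ± 0.14) came next. At the high end Mrpl15 (0.51 ± 0.13) and Mrpl30 (0.46 ± 0.12) were followed by Rpl37a (0.40 ± 0.12) and Rpl31 (0.40 ± 0.10). Rps21 (-0.48 ± 0.12) and Rpl12 (-0.46 ± 0.09) were the lowest cytosolic genes.

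Between old and young vehicle, H3K9/14ac had a median of -0.10 over 15 genes, with 1 higher and 2 lower, where 13.6% of 1586 genes were higher and 6.87% lower. Mrps2 was higher (0.83 ± 0.14), and Rpl37a (-0.73 ± 0.11) and Mrpl30 (-0.62 ± 0.11) were lower. Rpl31 was next lowest (-0.54 ± 0.09). Rpl31 and Rpl37a had the larger tag counts in the library labelled young vehicle, 525 and 407, against 457 and 311 in old vehicle. Between old and young TSA the median was -0.09 over 33 genes, with 0 higher and 0 lower, where 9.57% of 3083 genes were higher and 7.75% lower. The extremes there were Mrpl30 (0.46 ± 0.12), Mrpl50 (0.46 ± 0.12), Rps27 (0.45 ± 0.13) and, at the low end, Mrps2 (-0.44 ± 0.14).

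**Figure D4:**
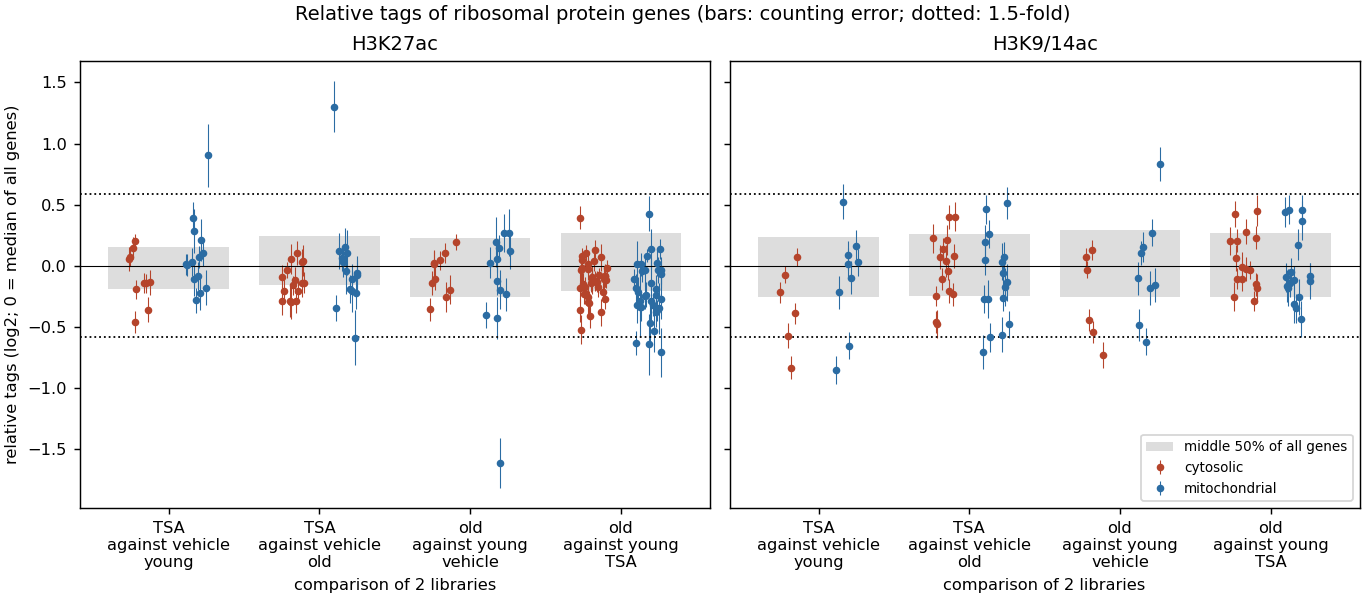
Relative tags (log2, 0 is the median of all genes) of each ribosomal protein gene in the 4 comparisons of 2 libraries for each mark; bars are counting errors, grey boxes the middle 50% of all genes and dotted lines 1.5-fold. Most points lie between the dotted lines, with Mrpl47 outside in 2 H3K27ac comparisons (1.30 and -1.61) and Mrps2 highest in 2 H3K9/14ac ones (0.52 and 0.83).

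The range of H3K27ac over the 4 libraries was smaller than that of genes at large and like that of related lists. The difference between a gene's highest and lowest library, each centred on the median of all genes, had a median of 0.34 (log2) over 23 ribosomal protein genes with a peak in all 4, and of 0.44 over 1903 genes at large. For the other lists it was 0.26 (translation factors), 0.30 (respiratory chain), 0.34 (mitochondrial translation), 0.36 (proteasome) and 0.38 (ribosome biogenesis). It was 0.30 in the 10 cytosolic and 0.39 in the 13 mitochondrial genes. The median counting SD of a value was 0.08 for the ribosomal protein genes and 0.07 for all genes. The widest range was that of Mrpl47 (1.60), through its old vehicle value. For H3K9/14ac the median range was 0.51 over 15 ribosomal protein genes and 0.50 over 1556 genes, so the marks differed: the range was narrower than that of genes at large for H3K27ac and about equal to it for H3K9/14ac, with no test of either.

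**Figure D5:**
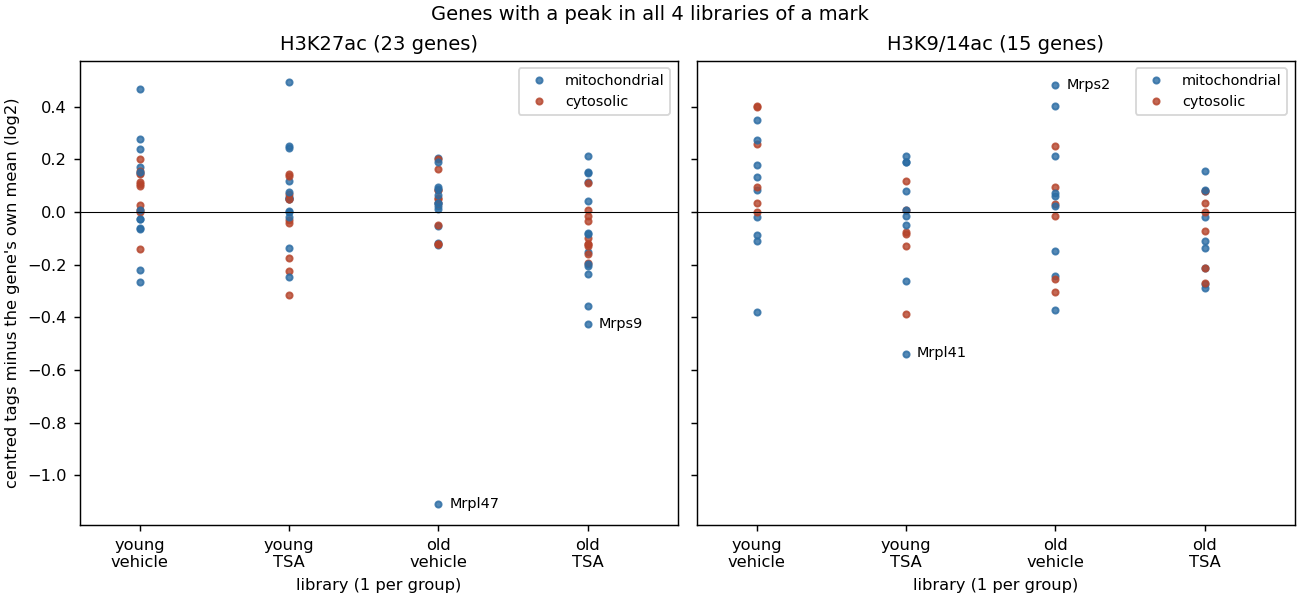
Centred tags (log2, median of all genes removed) minus each gene's own mean, for the 23 ribosomal protein genes with H3K27ac and the 15 with H3K9/14ac in all 4 libraries; each point is a gene in 1 library. Mrpl47 in old vehicle stands apart for H3K27ac, and the genes spread more widely for H3K9/14ac (median range 0.51 against 0.34).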

How the data were processed

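ChIP-seq peak lists of 8 libraries were used. Per the file headers, the authors deposited output of the differential peak tool in HOMER, run on each library with itself as background, and the column used holds tag counts per peak, not normalized. The submitters' processing notes name Bowtie 0.12.7, TopHat2 2.0.9, HTSeq 0.6.1p1, DESeq2, MACS2, HOMER and build GRCm38 without their roles. The use of the inputs is not stated. Each list stops part way along the genome, and its 1 incomplete last line was dropped. Total tags in peaks read were 452476 (H3K9/14ac young vehicle) to 4159280 (H3K27ac old TSA).

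With Python 3.11.15, pandas 2.3.3 and numpy 2.4.6, the tags of each peak were shared out by overlap to gene windows (RefSeq GRCm38.p6, 2000 bp flanks). Intervals for shares are exact binomial (scipy 1.17.1). The calculation was tested on simulated data. The members and lists were chosen with earlier results of these data known. Named genes are the 3 highest and lowest per comparison and class, the 5 highest and lowest per kb for each mark, and genes without a peak; a few genes that this rule names are not reported here. Start windows, coverage profiles, the balance of the marks, the range over libraries, promoter letters and the other named pairs were chosen after the data were seen. Alternatives were other flanks, whole peaks, centring on total tags, a pseudocount of 20 tags, shared windows left out, a 2-fold threshold and the upper 50% of peaks.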

Additional observations from a re-analysis of the deposited data

Results flagged for a closer look

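Mrpl30 and Mrps2 stood in opposite directions between the ages in H3K9/14ac with TSA. For Mrpl30 the relative value was -0.65 ± 0.11 in young and 0.46 ± 0.12 in old FAPs, a difference of -1.12 (log2), and for Mrps2 it was 0.52 ± 0.14 and -0.71 ± 0.14, a difference of 1.23. Errors are from counting, each age has 1 library per treatment, and the difference was not tested. Both were picked out because the values went opposite ways by at least 1 log2 unit. An exchange of treatment labels at 1 age would turn any gene so picked to the same direction at both ages. These genes therefore cannot show whether labels were exchanged.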

How the results depend on the processing

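Of 48 recalculated median relative values, 45 stayed within the binomial 95% interval of the median over the genes, which is wide where few were reached. For H3K9/14ac it holds -0.29 with no flank (TSA, young; -0.10 as reported) and -0.29 without shared windows (old against young, vehicle; -0.10). Some medians near 0 changed sign: H3K27ac, old against young vehicle, from 0.02 to -0.12 with whole peaks and to -0.05 with the pseudocount, and H3K9/14ac, TSA in old, from -0.05 to 0.05 without shared windows. Centred on total tags, the H3K27ac median was 0.17 (TSA, young) and -0.31 (old against young, TSA), where 7 genes were lower, and 1 was lower for H3K9/14ac with TSA in old. With no flank, H3K27ac gave 2 higher and 2 lower (TSA, young), a median of -0.22 with 0 higher and 3 lower (TSA, old), 1 higher (old against young, vehicle) and 6 lower (old against young, TSA), and H3K9/14ac gave 1 higher (TSA, old) and 3 higher (old against young, TSA). At 2-fold, counts of 0 replaced the higher H3K27ac gene with TSA in young, the lower ones with TSA in old and between the ages in TSA, and all H3K9/14ac calls in the 3 comparisons that had any. With the upper 50% of peaks the share with H3K27ac was 87.2% in young TSA, 79.4% in old vehicle, 85.9% in old TSA and 95.8% in young vehicle, and that with H3K9/14ac in old TSA was 93.0%. The share in young TSA was 98.7% without the retroposed copies (an alternative added after seeing the data, which also gave 100% for H3K9/14ac in old TSA), and the H3K27ac share was 100% in old vehicle (15 genes) where windows with another gene were left out. The cause was not tested. No paired analysis was possible because each group has 1 library, and for the same reason none could be left out. Low tag counts limit the mitochondrial genes most.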
